A study of Mus musculus with 29 samples.

Results

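Libraries named for sorted pyramidal neurons of the amygdala were compared with those of the medial prefrontal cortex. There were 13 of each region, which is 26 of the 29 samples described for the series. The libraries were chosen by region, from each region's deposited expression tables, and genes were compared where the tables of both regions listed them. The amygdala and the medial prefrontal cortex are connected parts of the circuit that stores and regulates fear. Principal neurons of the basolateral amygdala and pyramidal neurons of the cortex are both glutamatergic cells of pallial origin. They share much of their gene expression, and transcription factors, receptors and adhesion molecules are among the genes known to tell them apart.

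The 13 amygdala libraries were 3 of Res-T and 2 of Sus-T mice without trauma and 4 of Res-T and 4 of Sus-T mice with trauma. The 13 prefrontal libraries were 4 of Res-T and 2 of Sus-T mice without trauma and 3 of Res-T and 4 of Sus-T mice with trauma. Res-T and Sus-T are the submitters' names for the phenotypes, which the labels do not spell out, and the labels give neither the trauma protocol nor the age. All groups were B6.Cg-Tg(Thy1-YFP)HJrs/J mice, in which a Thy1 promoter drives yellow fluorescent protein in a subset of projection neurons. Punched tissue was dissociated by hand and with enzymes, neurons were sorted into lysis buffer, and libraries for very small amounts of total RNA were made after ribosomal RNA had been removed. The protocol text names amygdala punches for the samples of both regions. The amygdala's 13 libraries exceed the 9 mice that the design text names for it, and nothing says that libraries came from separate animals, so p-values measure the spread between libraries, part of which may be technical.

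The amygdala tables listed 9872 genes and the prefrontal ones listed 6080, of which 5274 were in both, 53.4% of the amygdala list and 86.7% of the prefrontal list. Each library was divided by its own median over the shared genes, and a level below is a multiple of that median. The depth in reads is unknown, because the deposited values are not counts. The regions came in separate tables with different gene lists, so region and the processing of its table cannot be told apart in any difference between regions, and dividing by a median removes only a difference of scale. Pairs of libraries from different regions had a median Pearson correlation across genes of 0.900 (log2 levels, 169 pairs), against 0.929 for pairs within the amygdala and 0.878 for pairs within the prefrontal cortex (78 pairs each), given as a description because all pairs share the same genes. The first component of variation, with 26.7% of the variance, did not divide the regions: its highest scores were those of prefrontal Res-T with trauma, prefrontal Res-T without trauma replicate 4 and amygdala Res-T without trauma. Prefrontal Res-T without trauma replicate 2 stood apart on the second component.

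The name of pyramidal neurons could be checked only in part, since of 12 pyramidal markers 0 were listed in both regions. Camk2a, a kinase that calcium activates at excitatory synapses, was listed for the amygdala alone, with levels of 0.263, 3.46 and 17.7 (lowest, median and highest of 13 libraries). Camk2n1, its inhibitor, had 0.563, 3.91 and 19.5, Chn1, a regulator of Rac, had 0.358, 1.1 and 2.95, and Nrgn, a postsynaptic calmodulin-binding protein, had 0.0558, 0.168 and 2.26, also in the amygdala alone. Thy1, whose promoter marks the cells, Slc17a7, the vesicular glutamate transporter of cortical neurons, and the other 6 had no row in the tables used here, from which nothing about their level can be read. Markers of oligodendrocytes, the myelin-forming glia, were present in both regions: 16 of 25 were listed in both and together took 2.61% to 9.91% of the shared-gene total in amygdala libraries, against 3.02% to 10.2% in prefrontal libraries. Of 20 astrocyte markers 8 were listed in both regions, and of 15 microglia markers 0 were listed in both and 3 for the amygdala alone. Among markers listed for the amygdala alone, median levels ran from 0.168 (Nrgn) to 3.91 (Camk2n1) for pyramidal neurons. They ran from 4.71 (Sox10) to 53.8 (Mobp) for oligodendrocytes, 1.39 (Acsbg1) to 75.2 (Slc1a2) for astrocytes and 0.287 (C1qa) to 1.63 (Cx3cr1) for microglia. Which cells gave these transcripts was not tested. The libraries are called by their region below.

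Known markers listed for only one region were mostly listed for the amygdala, whose tables held 4598 genes that the prefrontal ones did not, against 806 the other way. Of 19 basolateral amygdala markers Nr2f2, Zbtb20 and Wfs1 were listed for the amygdala alone and none for the prefrontal cortex alone. Zbtb20, a zinc finger repressor, had levels of 12.5, 15.8 and 19.4 (lowest, median and highest), and Nr2f2, an orphan nuclear receptor, had 0.238, 0.733 and 1.82. Of 40 cortical layer markers 9 were listed for the amygdala alone, among them Cux2, a factor of upper-layer neurons (0.765, 1.2 and 1.8), and 2 for the prefrontal cortex alone, Stard8 (0.145, 0.534 and 1.4) and Calb1, a calcium buffer (0.0118, 0.0433 and 1.77). Of 18 markers of medial amygdala and hypothalamus the amygdala alone had Esr1, the oestrogen receptor (0.00791, 0.0467 and 0.233), and Ecel1 (0.00944, 0.0638 and 0.151), both at low levels. Rgs9, Ebf1 and Rarb, striatal genes, were listed for the amygdala alone and Zic1 for the prefrontal cortex alone. Among 49 patterning factors of the forebrain Emx2, Pax6, Zic1 and Zic2 were prefrontal alone and 10, including Nr2f1 and Sox5, amygdala alone.

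Activity-induced genes were split between the tables. Fos had levels of 5.86, 10.2 and 28.8 and Jun had 4.98, 10.3 and 22.2, both listed for the prefrontal cortex alone, as were Fosb, Nr4a1 and Dusp1. Arc, a synaptic immediate early gene, had 1.94, 3.13 and 4.84 and was listed for the amygdala alone, as were Egr3, Nr4a2 and Nr4a3. Nr3c1, the glucocorticoid receptor, was also amygdala alone (3.59, 4.78 and 6.72). Of 65 cytosolic ribosomal protein genes 16 were listed in both regions and 49 in the amygdala alone. A row can be missing through any filter on a table, and presence was not tested.

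Few of the shared genes differed between the regions. With phenotype and trauma group as a block, 76 of 5274 genes (1.44%) passed an adjusted p of 0.05 in limma with Benjamini-Hochberg adjustment, 48 (0.91%) higher and 28 (0.531%) lower in the amygdala, and 868 had an unadjusted p under 0.05. Of the 76, 17 genes (0.322%) differed at least 2-fold, 12 (0.228%) higher and 5 (0.0948%) lower, and 68 had the same sign in all 4 groups. For 0 genes did all amygdala libraries lie on one side of all prefrontal libraries. The rule for naming genes asked for such a separation, so the leading genes of this comparison were named after their values were seen. Without rescaling, 650 genes passed, 634 of them higher in the amygdala, with the median gene at 0.21 (log2), and after scaling by the library sum 67 passed, 32 higher and 35 lower. The count was 101 without prefrontal Res-T without trauma replicates 2 and 4, 211 with the mean level of oligodendrocyte markers as a covariate and 14 with Res-T without trauma left out of both regions. It was 35 without amygdala Res-T without trauma replicate 1, 41 without replicate 2 of that group, 49 without prefrontal Sus-T with trauma replicate 3 and 50 without amygdala Sus-T with trauma replicate 4.

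Genes higher in the amygdala included Lrig1, Dner and Spock3. Lrig1, an inhibitor of growth factor receptors (chromosome 6, 94604529 to 94700158, minus strand, GRCm38), had levels of 0.938, 1.51 and 2.39 in amygdala libraries (lowest, median and highest, n = 13), against 0.0379, 0.604 and 1.23 in prefrontal libraries. In 12 of 13 amygdala libraries Lrig1 lay above every prefrontal library (log2 difference 1.68 ± 0.32 SE, limma adjusted p = 0.0063). Dner, a neuronal ligand of Notch (chromosome 1, 84369839 to 84696221, minus strand), had 0.823, 1.19 and 1.9 in amygdala libraries, against 0.633, 0.752 and 0.978 in prefrontal libraries. Here 11 amygdala libraries were above every prefrontal one (log2 0.7 ± 0.11, limma adjusted p = 0.0021). Spock3, a proteoglycan of the brain matrix, had 1.14, 3.22 and 4.16 in amygdala libraries, against 0.636, 1.58 and 2.28 in prefrontal libraries. The groups overlapped, with 9 amygdala libraries above every prefrontal one (log2 0.85 ± 0.16, limma adjusted p = 0.0063). Plce1, a phospholipase C, had medians of 0.879 in amygdala and 0.285 in prefrontal libraries (log2 1.61 ± 0.38), and Slc6a9, a glycine transporter, had 3.58 in amygdala and 1.87 in prefrontal libraries (log2 0.74 ± 0.16). Cog6, a Golgi tethering subunit, Car14, a carbonic anhydrase, Prr18 and Oxsr1, a kinase of ion transport, were higher by log2 0.73 to 1.01.

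Some myelin and receptor genes were also higher in the amygdala. Mbp, myelin basic protein, had levels of 81.3, 118 and 211 in amygdala libraries, against 59.9, 67.8 and 117 in prefrontal libraries, and 8 amygdala libraries were above every prefrontal one (log2 0.74 ± 0.12, limma adjusted p = 0.0022). Enpp2, a secreted enzyme of oligodendrocytes and choroid plexus, had 12.8, 36.1 and 133 in amygdala libraries, against 13.6, 20.3 and 52.5 in prefrontal libraries, with wide overlap (log2 0.7 ± 0.18, limma adjusted p = 0.048). These were the 2 of 16 oligodendrocyte markers that passed, beside 1.44% of all shared genes (0.91% higher), and the median of the 16 was 0.49 (log2), beside 0.04 over all shared genes. The sign of that median differed between groups. Without trauma it was 1.1 in Res-T and -0.32 in Sus-T, and with trauma -0.25 in Res-T and 0.89 in Sus-T. Fewer cells of a type and less RNA per cell cannot be told apart in such libraries. Grin3a, an NMDA receptor subunit, had 0.323, 0.758 and 1.78 in amygdala libraries, against 0.104, 0.406 and 1.21 in prefrontal libraries (log2 1.0 ± 0.26, limma adjusted p = 0.043). Grik1, a kainate receptor subunit, had 0.203, 0.33 and 0.524 in amygdala libraries, against 0.0548, 0.165 and 0.54 in prefrontal libraries (log2 1.07 ± 0.27, limma adjusted p = 0.043). The regions overlapped for both, with 1 of 13 amygdala libraries above every prefrontal one for Grin3a and 0 of 13 for Grik1. They were the 2 of 5 ionotropic glutamate receptor genes that passed, beside the same 1.44%. Nxph1, a neurexin ligand of interneurons, was the 1 of 3 GABAergic markers that passed (again beside 1.44%), with 0.112, 0.238 and 0.547 in amygdala libraries, against 0.0185, 0.116 and 0.511 in prefrontal libraries (log2 1.31 ± 0.34, limma adjusted p = 0.048). Enpp2, Grin3a, Grik1 and Nxph1 lost their calls in 23, 20, 22 and 25 of up to 38 alternatives, while Lrig1, Dner, Spock3, Mbp and Prr18 kept theirs in all 38. The 38 do not include the fits within single groups, the fit of 8 group means or the fit without Res-T without trauma.

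Genes lower in the amygdala included Hivep1, Hivep3 and Slc38a1. Hivep1, a zinc finger transcription factor (chromosome 13, 42052021 to 42192537, plus strand), had levels of 0.859, 1.82 and 2.33 in amygdala libraries, against 2.03, 3.35 and 5.3 in prefrontal libraries. In 9 amygdala libraries it lay below every prefrontal one (log2 -1.02 ± 0.14, limma adjusted p = 0.00026). Hivep3, of the same family, had 1.11, 1.53 and 3.05 in amygdala libraries, against 1.97, 2.92 and 4.88 in prefrontal libraries, with 10 amygdala libraries below every prefrontal one (log2 -0.93 ± 0.15, limma adjusted p = 0.0021). Slc38a1, a glutamine transporter, had 0.201, 0.824 and 2.06 in amygdala libraries, against 1.02, 1.62 and 2.49 in prefrontal libraries (log2 -1.3 ± 0.25, limma adjusted p = 0.0063). Efhd2, a calcium-binding protein, had 0.229, 0.923 and 2.98 in amygdala libraries, against 1.08, 1.39 and 3.14 in prefrontal libraries (log2 -1.15 ± 0.22, limma adjusted p = 0.0063). Slc38a1 had 10 and Efhd2 had 8 amygdala libraries below every prefrontal one. Sirpa, a membrane receptor of phagocytosis control, had 1.33, 3.27 and 6.89 in amygdala libraries, against 3.94, 5.51 and 9.16 in prefrontal libraries (log2 -0.76 ± 0.16), with 7 amygdala libraries below every prefrontal one. Eogt, a glycosyltransferase, Slc36a1, an amino acid transporter, Dclk1, a microtubule-binding kinase, Spred2, an inhibitor of MAP kinase signalling, Zfpm1, a GATA cofactor, Elfn2, a synaptic adhesion protein, and Rap1b, a small GTPase, were lower by log2 -1.18 to -0.55. Hivep1, Hivep3, Slc38a1, Efhd2 and Eogt kept their calls in all 38 alternatives, and Dclk1 lost its call in 29. Again the fits within single groups are not among the 38. Within groups the Efhd2 difference was -2.46 ± 0.33 in Res-T and -0.0119 ± 0.32 in Sus-T without trauma. With trauma it was -0.75 ± 0.27 in Res-T and -0.95 ± 0.26 in Sus-T.

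**Figure D1:**
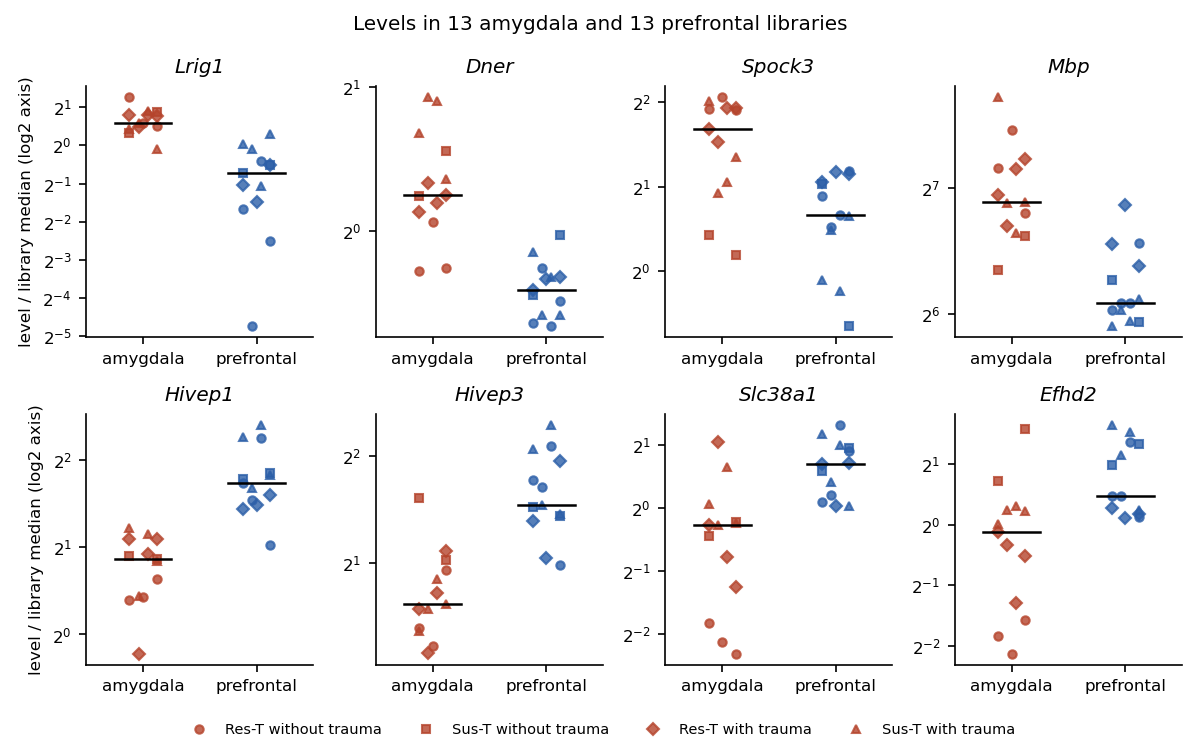
Levels of 8 genes as multiples of the library median (log2 axis) in 13 amygdala libraries (left) and 13 prefrontal libraries (right), with a symbol for each phenotype and trauma group and a line at the median. Lrig1, Dner, Spock3 and Mbp lie mostly higher in the amygdala, Hivep1, Hivep3, Slc38a1 and Efhd2 mostly lower, and for each gene some libraries of the regions overlap.

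Over all 4 groups, the region markers that both tables listed did not pass the test, beside 1.44% of all shared genes that did. At that share lists this short would often hold 0 called genes. Within Res-T with trauma, where 14.3% of all shared genes passed, 6 calls were made, given with the groups below. Of 11 cortical layer markers 0 were called, with a median difference of 0.04 (log2), beside 0.04 over all shared genes. Cux1, of upper layers, had medians of 2.96 in amygdala and 3.16 in prefrontal libraries (log2 0.02 ± 0.11), and Rorb, of layer-4 neurons, had 2.17 in amygdala and 2.11 in prefrontal libraries (log2 0.04 ± 0.25). Both signs turned under scaling by the library sum. For the deeper-layer genes the log2 differences were 0.2 ± 0.11 for Etv1, 0.04 ± 0.14 for Parm1, 0.12 ± 0.2 for Deptor, -0.29 ± 0.18 for Foxp1, 0.67 ± 0.29 for Foxp2 and -0.23 ± 0.13 for Tle4. For the remaining layer markers they were 1.19 ± 0.58 for Sulf1, -0.51 ± 0.21 for Pou3f2 and 0.83 ± 0.28 for Cdh13, with limma adjusted p of 0.31, 0.2 and 0.12. A p that misses the threshold does not show that the levels are alike.

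Of the basolateral amygdala markers Nrp2, a semaphorin receptor, had medians of 0.502 in amygdala and 0.643 in prefrontal libraries (log2 -0.28 ± 0.18), Adamts2, a procollagen protease, 0.722 in amygdala and 0.552 in prefrontal libraries (0.31 ± 0.21), and Lsamp, an adhesion protein, 4.65 in amygdala and 5.82 in prefrontal libraries (-0.19 ± 0.14), and 0 of the 3 passed. Of 4 striatal and central amygdala markers 0 passed, with log2 0.64 ± 0.26 for the phosphodiesterase Pde10a, 0.52 ± 0.21 for the G protein subunit Gng7 and 0.21 ± 0.11 for the adenylyl cyclase Adcy5. All 3 were highest in amygdala Sus-T with trauma replicate 1, at 4.28, 8.84 and 7.81. Ndn, an imprinted gene of the hypothalamic list, had 0.27, 0.897 and 1.13 in amygdala libraries, against 0.0887, 0.399 and 1.5 in prefrontal libraries (log2 1.01 ± 0.3, limma adjusted p = 0.076). Within groups its difference was 2.2 ± 0.31 in Res-T with trauma (limma adjusted p = 0.0022), 1.08 ± 0.26 in Sus-T with trauma (0.062) and -0.00603 ± 0.73 in Res-T without trauma (0.998). Mef2c, an activity-dependent transcription factor, had 0.429, 1.7 and 4.41 in amygdala libraries, against 0.51, 3.95 and 7.78 in prefrontal libraries (log2 -0.64 ± 0.32, limma adjusted p = 0.31). It passed in opposite directions in 2 groups: the difference was 1.38 ± 0.23 in Res-T with trauma (limma adjusted p = 0.0036) and -1.63 ± 0.18 in Sus-T with trauma (0.0004). Over all 4 groups, 0 passed of 17 forebrain patterning factors, 12 postsynaptic density genes, 8 vesicle genes, 16 ribosomal protein genes and 40 nuclear respiratory chain genes, some of which passed within single groups. The counts of 0 in this paragraph stand beside 1.44% of all shared genes.

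Summed marker shares were tested by exact permutation of the region labels within the 4 groups (514500 arrangements, two-sided, adjusted over 11 lists). The ependymal and choroid plexus list, which Enpp2 alone made up, took 0.39% ± 0.263 in amygdala libraries, against 0.229% ± 0.1 in prefrontal libraries (SD, n = 13 each, adjusted exact p = 0.046). Amygdala Res-T with trauma replicate 2 held 1.2%, and the next highest amygdala library 0.464%. The oligodendrocyte list took 6.98% ± 2.07 in amygdala libraries, against 5.29% ± 2.35 in prefrontal libraries (SD, n = 13 each, adjusted exact p = 0.068). Its mean was higher in the amygdala in Res-T without trauma (9.174% against 5.761%) and in Sus-T with trauma (6.435% against 3.765%). The mean was slightly lower there in Sus-T without trauma (3.404% against 3.738%) and in Res-T with trauma (7.668% against 7.745%). The cortical layer list took 0.135% ± 0.0237 in amygdala libraries, against 0.138% ± 0.0245 in prefrontal libraries (adjusted exact p = 0.82). The Enpp2 call was lost in 16 of the 26 tests that left out 1 library, with adjusted exact p of up to 0.089. As shares of all genes in each region's own tables, the Enpp2 difference had an adjusted exact p of 0.65, and the oligodendrocyte difference turned to -0.198 percentage points. On those totals the difference (percentage points, amygdala minus prefrontal) was, for the cortical layer list, -0.0389 (adjusted exact p = 0.0004), for the basolateral amygdala list -0.0215 (0.00017) and for the GABAergic list -0.0176 (0.005). Only members listed in both regions were summed, while the totals also held 4598 genes of the amygdala alone and 806 of the prefrontal cortex alone. The longer amygdala list lowers every amygdala share, so these p-values cannot tell a difference in markers from the unequal lengths. With all libraries no other list passed on the shared-gene total. With 1 library left out, 5 of the 26 tests passed for the oligodendrocyte list and 7 for the hippocampal list, which Prox1 alone made up. For the precursor list 4 passed, for the GABAergic 3, for the medial amygdala and hypothalamic 3 and for the striatal 2. All of these were higher in the amygdala. The oligodendrocyte list had an adjusted exact p of 0.025 without prefrontal Res-T without trauma replicate 4, and the medial list, which Ndn alone made up, 0.0026 without replicate 2 of that group.

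The count of genes that differed between regions was unlike in the 4 groups. Within Res-T without trauma 7 genes (0.133%) passed, 2 (0.0379%) higher and 5 (0.0948%) lower in the amygdala. Within Res-T with trauma 753 genes (14.3%) passed, 453 (8.59%) higher and 300 (5.69%) lower. Within Sus-T with trauma 56 genes (1.06%) passed, 39 (0.739%) higher and 17 (0.322%) lower. Within Sus-T without trauma, with 2 libraries a region, 0 passed in limma and 165 had an unadjusted p under 0.05. Region markers called within Res-T with trauma were the cortical Cdh13 (2.3 ± 0.35) and Sulf1 (4.85 ± 0.98), the striatal Pde10a (1.09 ± 0.3) and Gng7 (0.97 ± 0.23) and Ndn, all higher, and the basolateral Adamts2 (-0.8 ± 0.24), lower (log2, limma adjusted p 0.0022 to 0.039). Sulf1 had 0.0283, 0.00943 and 0.0152 in the prefrontal libraries of this group, close to their lowest values. In the amygdala it had 0.224, 4.05, 0.149 and 0.331, so 1 library raised the difference. In the same group 5 of 16 ribosomal protein, 6 of 40 respiratory chain, 2 of 12 postsynaptic and 1 of 8 vesicle genes were higher, beside 8.59% of all shared genes, and of 17 patterning factors 1 was higher and 1 lower. Within Res-T without trauma 2 of 16 ribosomal protein genes were lower, beside 0.0948% of all shared genes. The median of the 16 was -0.93 there, and 0.58 in Res-T with trauma (log2). The oligodendrocyte median was 1.1 in Res-T without trauma with 0 of 16 called, and -0.25 in Res-T with trauma. Within Sus-T with trauma 7 of 16 oligodendrocyte markers were higher, beside 0.739% of all shared genes, with a list median of 0.89 (log2). Prox1, the only hippocampal marker listed in both regions, was also called higher there (1.13). Of the patterning factors 1 was higher and 1 lower. A difference between such counts was not tested, and a count also depends on the spread between libraries. In Res-T without trauma the prefrontal libraries ran from -22.4 (replicate 2) to 37 (replicate 4) on the first component. A low count does not show that the regions are alike. The differences between regions in each effect were tested gene by gene below.

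**Figure D2:**
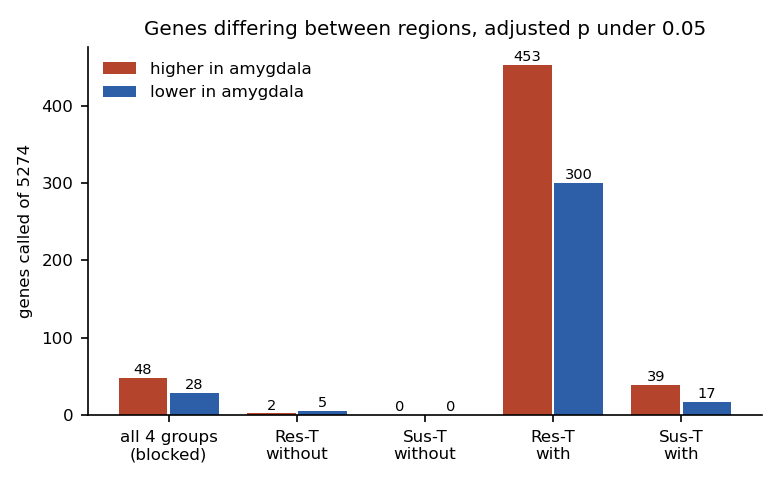
Number of shared genes with an adjusted p under 0.05 in limma that were higher (left bar of each pair) or lower (right bar) in the amygdala than in the prefrontal cortex, over all 4 groups with a block and within each group. Res-T with trauma holds 453 and 300 genes, and no other single group more than 39 in a direction.

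The change with trauma in Res-T mice was unlike in the 2 regions for more genes than any other effect tested. Each difference is the amygdala effect minus the prefrontal effect, so a constant offset of a gene between the tables cancels. It passed for 751 genes (14.2%), positive for 289 (5.48%) and negative for 462 (8.76%). Ribosomal protein genes, which build the cytosolic ribosome, were positive: 12 of 16 passed, 0 were negative, and the median was 1.75 beside -0.07 over all shared genes (log2). The median member changed by 0.81 in amygdala libraries and by -0.82 in prefrontal libraries, values given without a test. Rpl10 (chromosome X, 74270812 to 74273135, plus strand) had levels of 4.01, 4.4, 5.55 and 3.12 in amygdala Res-T with trauma, against 1.73, 2.27 and 2.12 without trauma. In prefrontal Res-T it had 3.32, 3.1 and 2.54 with trauma, against 4.96, 5.78, 5.45 and 4.54 without trauma. The groups did not overlap in either region and lay in opposite order (log2 difference 1.84 ± 0.27, limma adjusted p = 0.00051). Rpl10a had 2.35 ± 0.37 and Rps13 had 2.02 ± 0.32.

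Nuclear genes of the respiratory chain and ATP synthase had the same direction, with 14 of 40 positive, beside 5.48% of all shared genes, 0 negative and a median of 1.07 (log2). Sdhd, a subunit of succinate dehydrogenase, had levels of 0.467, 0.818, 0.394 and 0.406 in amygdala Res-T with trauma, against 0.205, 0.38 and 0.221 without trauma. In prefrontal Res-T it had 0.163, 0.165 and 0.129 with trauma, against 0.491, 0.905, 0.566 and 0.279 without trauma. The groups did not overlap in either region (log2 2.71 ± 0.5, limma adjusted p = 0.0016). Uqcrb, of complex III, had 1.95 ± 0.39 and Atp5g3, of ATP synthase, 2.38 ± 0.53, and Hspe1, a mitochondrial chaperonin, 2.46 ± 0.46. Of 24 proteasome subunits 3 were positive, beside 5.48% of all shared genes, and 0 negative, beside 8.76%.

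Oligodendrocyte markers had the opposite direction, with 8 of 16 negative, beside 8.76% of all shared genes, 0 positive and a median of -1.32 (log2). Myrf, the transcription factor of myelination, had levels of 11.9, 12, 8.63 and 10.4 in amygdala Res-T with trauma, against 20.5, 23.8 and 16.3 without trauma. In prefrontal Res-T it had 15.9, 17.4 and 15 with trauma, against 7.68, 4.45, 6.69 and 15.5 without trauma. The amygdala groups did not overlap, and of the prefrontal libraries without trauma only replicate 4, at 15.5, lay among those with trauma (log2 -1.97 ± 0.43, limma adjusted p = 0.0053). Gjc3, a glial connexin, had -1.73 ± 0.33 and Tmem88b -1.96 ± 0.4. The summed oligodendrocyte share overlapped between the trauma groups in both regions: it was 6.43% to 8.93% in amygdala Res-T with trauma, against 8.76% to 9.91% without trauma, and 6.48% to 8.79% in prefrontal Res-T with trauma, against 3.9% to 10.2% without trauma. With their mean level as a covariate 11 genes passed, 3 of them ribosomal protein genes.

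**Figure D3:**
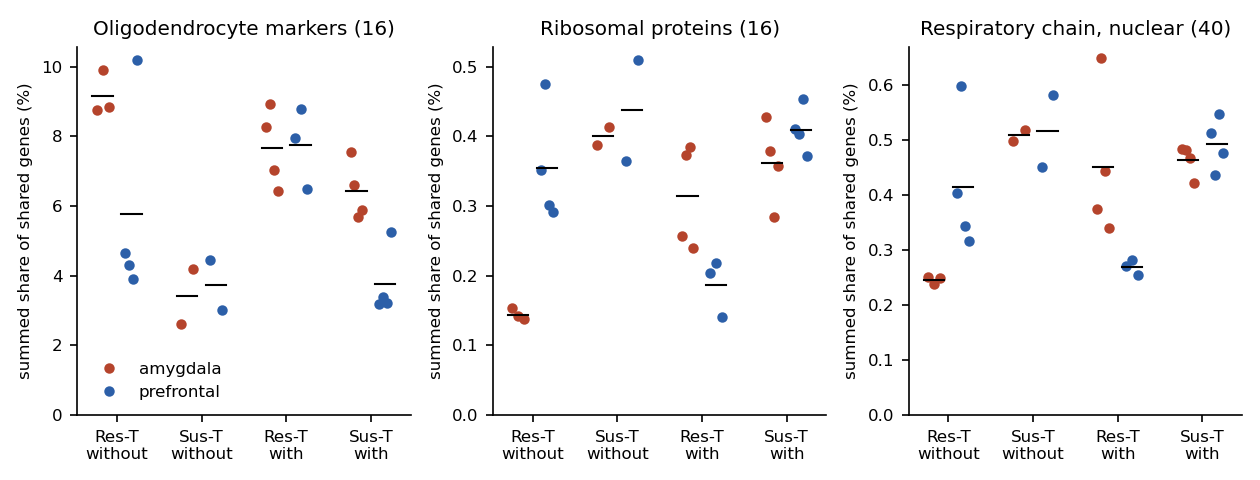
Summed share (%) of the shared-gene total taken by 16 oligodendrocyte markers, 16 ribosomal protein genes and 40 nuclear respiratory chain genes in each library (points; line at the mean), amygdala left of prefrontal in each group. In Res-T without trauma the amygdala libraries hold 8.76% to 9.91% oligodendrocyte markers and 0.138% to 0.153% ribosomal protein genes, against 3.9% to 10.2% and 0.292% to 0.475% in prefrontal libraries.

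**Figure D4:**
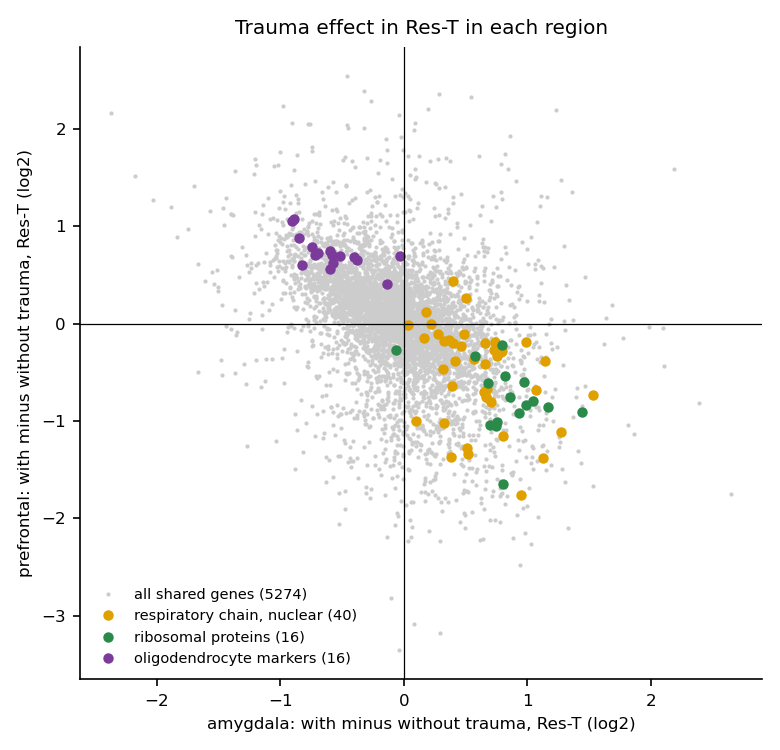
Change with trauma in Res-T (log2, with minus without) in the amygdala (horizontal) and the prefrontal cortex (vertical) for the shared genes, with 3 lists in colour. All 16 ribosomal protein genes and 39 of 40 respiratory chain genes changed more in the positive direction in the amygdala, and all 16 oligodendrocyte markers more in the negative direction.

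Among neuronal genes the directions were mixed. The list counts in this paragraph stand beside 5.48% of all shared genes positive and 8.76% negative. Mef2c had levels of 2.15, 1.68, 1.67 and 1.39 in amygdala Res-T with trauma, against 0.429, 0.476 and 1.01 without trauma, and 0.664, 0.818 and 0.51 in prefrontal Res-T with trauma, against 3.95, 1.92, 3.94 and 0.615 without trauma (log2 3.2 ± 0.58, limma adjusted p = 0.0016). Again prefrontal replicate 4 without trauma lay among the libraries with trauma. Of 20 axon guidance genes 2 were positive, among them the semaphorin co-receptor Plxna4 (2.93 ± 0.48), and 7 negative, among them the netrin receptor Unc5c (-1.75 ± 0.3) and Plxnb3 (-2.15 ± 0.51). Of 8 vesicle genes Nsf, the fusion ATPase (2.06 ± 0.46), and Vamp2, a SNARE protein (1.51 ± 0.37), were positive and Syt11 (-0.83 ± 0.28) negative, the last with its call lost in 21 alternatives. The scaffold Dlg3 (2.23 ± 0.65), the receptor subunit Grin3a (1.97 ± 0.56) and the calcium channel subunit Cacna2d2 (2.54 ± 0.74) were positive, and of the potassium channels Kcna3 was positive (2.61 ± 0.81) and Kcna6 negative (-1.39 ± 0.28). Of 6 cadherins Cdh10, Cdh19 and Cdh20 were negative, by log2 -1.71 to -1.11. Of 112 Zfp zinc finger genes 2 were positive, beside 5.48% of all shared genes, and 14 negative, beside 8.76%. Both directions together were about the share called over all shared genes (14.2%). The negative genes with the smallest p were Mast4, a microtubule-associated kinase (-1.86 ± 0.27), Daam1, a formin (-1.84 ± 0.28), Atp11a, a lipid flippase (-1.81 ± 0.28), and Fnbp1, a membrane-bending protein (-1.86 ± 0.3).

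Scaling by the library sum gave 635 positive and 184 negative genes, with the median gene at 0.28 (log2), and the ribosomal, respiratory chain and oligodendrocyte medians kept their signs under all 5 scalings. The count was 970 without prefrontal Res-T without trauma replicates 2 and 4, 1279 without prefrontal Res-T without trauma replicate 4, 479 without replicate 2 of that group, 451 and 476 without prefrontal Res-T with trauma replicates 4 and 1, and 496 without amygdala Res-T without trauma replicate 1.

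With trauma, the difference between Sus-T and Res-T mice was unlike in the regions for 282 genes (5.35%), positive for 109 (2.07%) and negative for 173 (3.28%). This comparison shares the Res-T libraries with trauma with the one above, so neither adds support to the other. Mef2c (chromosome 13, 83504034 to 83667080, plus strand) had levels of 1.71, 1.7, 2.31 and 2.52 in amygdala Sus-T, against 2.15, 1.68, 1.67 and 1.39 in amygdala Res-T. In the prefrontal cortex it had 5.35, 6.3, 5.92 and 7.78 in Sus-T, against 0.664, 0.818 and 0.51 in Res-T. The amygdala groups overlapped and the prefrontal groups did not (log2 difference -3.01 ± 0.56, limma adjusted p = 0.0079). Hspe1 had a Sus-T minus Res-T change of 0.34 in amygdala libraries and 3.05 in prefrontal libraries (difference -2.7 ± 0.44, limma adjusted p = 0.0057). Btbd2 (-2.96 ± 0.5), St3gal5, a ganglioside synthase (-2.63 ± 0.47), and Osbpl6, a lipid-binding protein (-2.76 ± 0.52), were the other negative genes with the smallest p.

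Other negative genes were the adhesion protein Cdh13 (-2.71 ± 0.55), the scaffold Dlg3 (-2.77 ± 0.62), the calcium channel Cacna1c (-2.27 ± 0.54) and the proteasome subunits Psmd5 (-2.49 ± 0.55) and Psma5 (-1.98 ± 0.57). Sulf1, a cell-surface sulfatase, had -5.77 ± 1.12, with amygdala Res-T at 0.224, 4.05, 0.149 and 0.331, of which 1 library stood apart. Prefrontal Res-T was at 0.0283, 0.00943 and 0.0152, close to the lowest values of those libraries. Positive genes with the smallest p were Mast4 (1.47 ± 0.26), Prpf39, a splicing factor (1.84 ± 0.34), Trp53inp1, a p53-induced stress gene (1.5 ± 0.32), and Ccp110, a centriole protein (1.47 ± 0.32). Mast4 changed by -0.27 in amygdala libraries and -1.75 in prefrontal libraries. Of 16 oligodendrocyte markers 3 were positive, beside 2.07% of all shared genes (list median 1.06), and of the 16 ribosomal protein and 40 respiratory chain genes 2 each were negative, beside 3.28% of all shared genes and for the respiratory chain near it (medians -0.78 and -0.62). With the oligodendrocyte covariate 0 genes passed in limma (641 at an unadjusted p under 0.05). The count was 34 and 39 without prefrontal Res-T with trauma replicates 1 and 4, 67 without prefrontal Sus-T with trauma replicate 3, 94 and 178 without amygdala Res-T with trauma replicates 1 and 2, and 106 and 175 without amygdala Sus-T with trauma replicates 2 and 4. It was 461 and 485 without prefrontal Res-T without trauma replicates 2 and 4 in turn, and 638 without both.

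**Figure D5:**
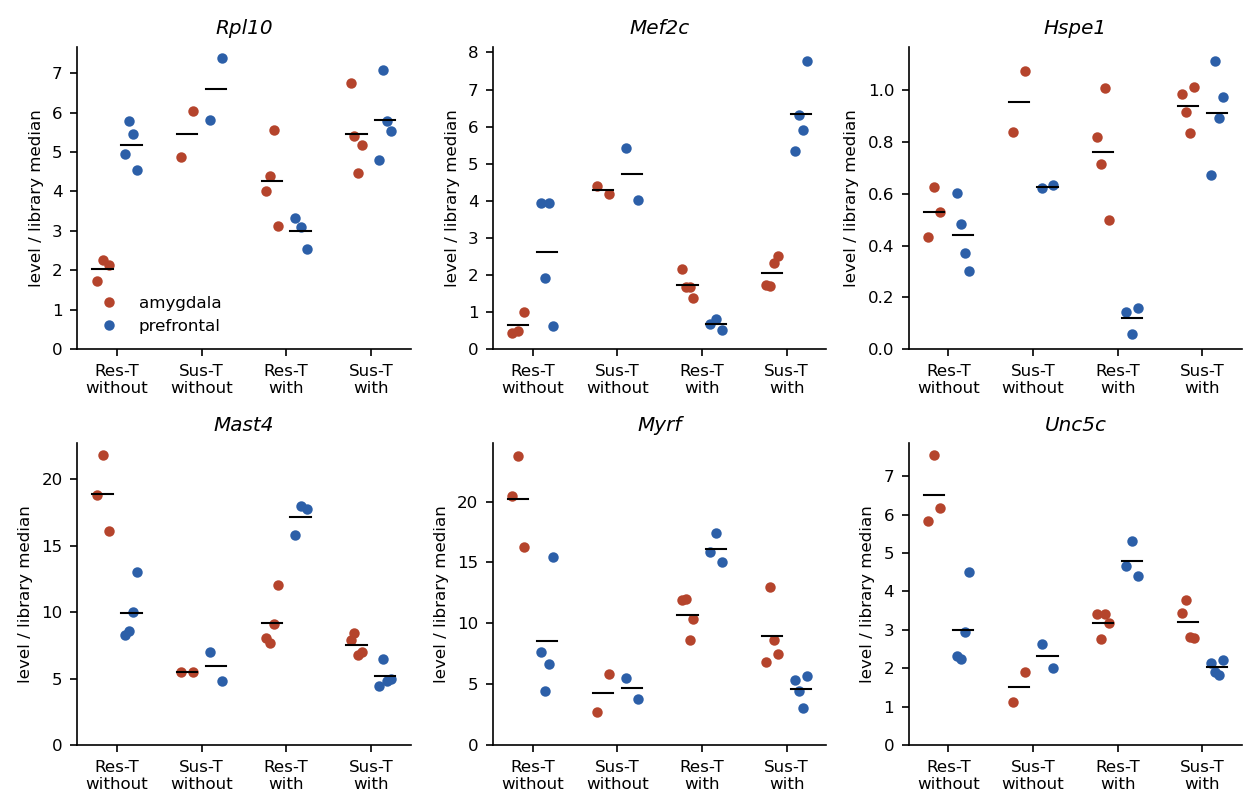
Levels of 6 genes as multiples of the library median in each library (points; line at the mean), amygdala left of prefrontal in each group. Rpl10 is lowest in amygdala Res-T without trauma and prefrontal Res-T with trauma, where Mast4, Myrf and Unc5c are highest on average.

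Without trauma, 14 genes (0.265%) had a Sus-T minus Res-T difference unlike in the regions, 1 (0.019%) positive and 13 (0.246%) negative. Efhd2 was the positive gene, with levels of 1.65 and 2.98 in amygdala Sus-T, against 0.279, 0.229 and 0.336 in Res-T. In the prefrontal cortex it had 1.98 and 2.52 in Sus-T, against 1.39, 1.39, 2.58 and 1.1 in Res-T. The amygdala groups did not overlap and the prefrontal groups did (log2 2.45 ± 0.51, limma adjusted p = 0.043). The negative genes with the smallest p were Unc5c (-1.82 ± 0.35), Mfsd14a, a transporter-like protein (-2.08 ± 0.41), Micall1, of endosome recycling (-1.47 ± 0.3), and Slc24a2, a potassium-dependent sodium-calcium exchanger (-1.39 ± 0.28), each with limma adjusted p = 0.04. Gjc3 (-1.75 ± 0.39) and Tmem88b (-2.08 ± 0.46) were the 2 of 16 oligodendrocyte markers called, beside 0.246% of all shared genes, and the list median was -1.37. These calls were lost in many alternatives, 22 for Efhd2, 19 for Unc5c, 19 for Mfsd14a, 25 for Gjc3 and 26 for Tmem88b. The count was 192 without prefrontal Res-T without trauma replicates 2 and 4. It was 0 in 14 of the 26 fits that left out 1 library, 220 without prefrontal Res-T without trauma replicate 4, 241 without prefrontal Sus-T without trauma replicate 3 and 55 without amygdala Sus-T without trauma replicate 3.

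The change with trauma in Sus-T mice was unlike in the regions for 0 genes in limma, with 310 at an unadjusted p under 0.05 and 0 (292 at an unadjusted p under 0.05) without trend and robust moderation. It was 13 without amygdala Sus-T without trauma replicate 3 and 36 without prefrontal Sus-T without trauma replicate 3. The smallest p-values were those of Il1rap, a co-receptor of interleukin 1 (2.15 ± 0.55), Mfsd14a (1.55 ± 0.4) and Pskh1, a serine kinase (3.0 ± 0.78), each with limma adjusted p = 0.56. Il1rap had levels of 5.23, 7.69, 3.96 and 4.35 in amygdala Sus-T with trauma, against 1.08 and 2.74 without trauma, and 1.63, 3.25, 1.95 and 4.58 in prefrontal Sus-T with trauma, against 5.56 and 2.76 without trauma. Sus-T without trauma had 2 libraries a region.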

How the data were processed

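Tools named in the submitters' processing notes are bcl2fastq 2.20 and Salmon 1.2, with the build GRCm38.p6. What the authors deposited was read as a signal without a stated unit, and how it was normalized is not given in the sources used here. Deposited values minus 1, centred by gene on a log scale, lacked 1 dimension among amygdala libraries and 2 among prefrontal ones beyond what centring takes, and the residual degrees of freedom used here (21 and 18) may be too many. Each library appears in 2 tables, and 26 of 26 repeated columns were identical. The 3 samples without a column were not analysed here. GENCODE M21 matched 10573 of 10678 IDs.

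Levels were taken to log2 with no pseudocount and no filter on low values. limma 3.58.1 in R 4.3.3, with trend and robust moderation, fitted region plus group for the region difference and 8 group means for the differences between regions in an effect, with Benjamini-Hochberg adjustment over 5274 genes. The fits were tested on simulated data with 200 changed genes. The region fit recovered 51% of 1.5-fold, 88% of 2-fold and 100% of 4-fold changes. For the difference between regions in Sus-T minus Res-T without trauma these were 0%, 6% and 67.5%. A low count there does not show that the regions are alike. Shares were tested by exact permutation with Python 3.11.15.

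The rule for named genes took the listed members of the region and pyramidal marker lists, up to 3 called members of each other list, the 4 positive and 4 negative genes with the smallest p of each difference between regions (3 where fewer were called), and Thy1, Slc17a7, Camk2a, Mef2c and Nr3c1. Members of lists named in the differences between regions were chosen after their values were seen. The members and lists were chosen with earlier results of these data known.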

Additional observations from a re-analysis of the deposited data

Results flagged for a closer look

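The following genes had an effect that differed between the regions by a test of the interaction (log2, amygdala effect minus prefrontal effect). For the trauma effect in Res-T the differences were 1.84 for Rpl10, 2.35 for Rpl10a, 2.02 for Rps13, 2.93 for Plxna4, -1.86 for Mast4, -1.84 for Daam1, -1.81 for Atp11a and -1.86 for Fnbp1. For Sus-T minus Res-T with trauma they were 1.47 for Mast4, 1.84 for Prpf39, 1.5 for Trp53inp1, 1.47 for Ccp110, -2.7 for Hspe1, -2.96 for Btbd2, -2.63 for St3gal5 and -2.76 for Osbpl6. For Sus-T minus Res-T without trauma they were 2.45 for Efhd2, -1.82 for Unc5c, -2.08 for Mfsd14a, -1.47 for Micall1 and -1.39 for Slc24a2.

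In 8 of 112 groups of 4 libraries that were examined, 1 library lay far from the other 3. For independent groups chance alone gives about 1 in 20. The 112 were the same libraries examined for many genes and lists, with genes partly chosen by their p. That rate therefore cannot be set against the 8. Oligodendrocyte markers took 10.2% in prefrontal Res-T without trauma replicate 4 and 5.27% in prefrontal Sus-T with trauma replicate 4. Slc24a2 had a level of 9.99 in amygdala Sus-T with trauma replicate 4 and 8.17 in prefrontal Res-T without trauma replicate 2. Btbd2 had 0.174 in prefrontal Res-T without trauma replicate 4. Rpl10a had 2.2 in amygdala Sus-T with trauma replicate 1, Plxna4 had 1.06 in prefrontal Sus-T with trauma replicate 4, and Fnbp1 had 8.24 in prefrontal Sus-T with trauma replicate 3.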

How the results depend on the processing

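The region difference, 76 genes, became 650 without rescaling, 211 with the oligodendrocyte covariate, 14 without Res-T without trauma, and 7, 0 and 753 in Res-T without trauma, Sus-T without trauma and Res-T with trauma alone. Leaving out 1 library gave 35 to 113. The 17 genes of at least 2-fold became 11 with sum scaling, 89 without rescaling, 9 with a pseudocount of 10, 8 at a mean of at least 100, 78 with the covariate, 6 without Res-T without trauma, 7, 0 and 433 in those 3 groups alone, and 8 to 23 without 1 library. Same-numbered libraries did not deviate together (correlations -0.099 to 0.093 in 12 pairs, 0 over 0.1, 2 best with their own number). In Sus-T without trauma, with 2 libraries a region, centring by group forces opposite values (-0.0895 with the own number, 0.0895 with the other). Whether same-numbered libraries came from the same mice cannot be told from such correlations. With the replicate block the counts were 18 for region, 5 at 2-fold, 174 for Sus-T minus Res-T without trauma, 338 with trauma, 1139 for the trauma effect in Res-T and 0 for that in Sus-T. The 14 genes without trauma became 0 under sum, quantile and upper-quartile scaling, without trend and robust moderation and with the covariate (331 to 710 at an unadjusted p under 0.05 in limma), and 0 to 241 without 1 library. The 282 genes with trauma became 122 under quantile scaling, 0 with the covariate and 34 to 485 without 1 library. The 751 genes of the trauma effect in Res-T became 409 under quantile scaling, 11 with the covariate and 451 to 1279 without 1 library, and the trauma effect in Sus-T gave 0 to 36. Chosen after seeing the data, leaving out the 2 prefrontal libraries that stand apart gave 192 genes without trauma, 638 with trauma and 970 for trauma in Res-T; upper-quartile scaling and subtracting 1 were also added then. Of 4812 single-gene values 4142 kept direction and call, 632 lost the call, 13 gained it and 25 changed sign, none of them a called gene. The fits within single groups are not among these values. The sign changes (log2) were Cux1 (-0.0325 sum scaling, -0.0153 block, -0.0303 without the 2 libraries, -0.0236 to 0.0646 without 1 library), Rorb (-0.00648 sum scaling, -0.0817 to 0.218 without 1 library), Parm1 (-0.00924 sum scaling, -0.00771 covariate, -0.0287 to 0.102 without 1 library), Deptor (-0.00413 block, -0.0215 without the 2 libraries), and with the covariate Adamts2 (-0.0226) and Mef2c (0.0512). As shares of each region's own tables the differences (percentage points) changed sign for oligodendrocyte (-0.198), GABAergic (-0.0176), striatal (-0.0041), precursor (-0.012) and endothelial (-0.00352) markers. There the members listed in both regions were set against totals of unequal length, which lowers the amygdala shares. Without 1 library the astrocyte difference was -0.0291 to 0.0205 and the endothelial difference -0.0021 to 0.0036. The causes were not tested.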
